A study of Homo sapiens with 9 samples.

Results

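The 9 genes HMGCS1, MVD, IDI1, FDFT1, SQLE, LSS, MSMO1, CYP51A1 and DHCR7 encode enzymes of the mevalonate and sterol pathway, which makes cholesterol. They were chosen by gene symbol, with earlier results of these data known. They were read through the probe sets that the platform annotation gives to 1 of these symbols alone. By that rule 7 genes with 17 probe sets were found among 19775 genes with a symbol of their own and 54675 probe sets in all. FDFT1 and CYP51A1 had no probe set of that kind in the annotation used and were not analysed here. The cells were U937, a suspension line from a human lymphoma with monocyte traits. Heated cultures spent 15 min at 44 °C or at 42 °C, with 0, 1, 3 or 6 h of recovery at 37 °C afterwards, and untreated cells at 37 °C were the control. There was 1 array per condition, 8 of heated cells and 1 of control cells, each an Affymetrix Human Genome U133 Plus 2.0 array, on which sets of short probes mostly match the 3′ part of a transcript. No other treatment is named in the labels, all cultures are of the same line, and the control has no time in its label.

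Cells make cholesterol from acetyl-CoA. HMGCS1 joins acetyl units to HMG-CoA, MVD closes the mevalonate arm by making isopentenyl diphosphate, and IDI1 turns that unit into its reactive isomer. Later, SQLE puts an epoxide on squalene and LSS folds the product into lanosterol, the first sterol. MSMO1 then removes methyl groups from the sterol ring, and DHCR7 reduces 7-dehydrocholesterol to cholesterol. Transcription of these genes is driven by SREBP factors, which leave the endoplasmic reticulum when its membrane is poor in sterol and are held back by INSIG proteins when it is rich. SREBP binds weakly by itself and works with NF-Y, a factor that recognises the letters CCAAT, and with Sp1, which recognises GC boxes.

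The 250 bases before the transcription start of 4 of the genes that the results turn on are shown because all 7 measured genes lay below the control directly after heat. They come from RefSeq (GRCh38.p14), run 5′ to 3′ in the direction of the gene, and carry CCAAT, or ATTGG where the box lies on the other strand, in capitals.
HMGCS1 (chr5:43313413-43313662, minus strand): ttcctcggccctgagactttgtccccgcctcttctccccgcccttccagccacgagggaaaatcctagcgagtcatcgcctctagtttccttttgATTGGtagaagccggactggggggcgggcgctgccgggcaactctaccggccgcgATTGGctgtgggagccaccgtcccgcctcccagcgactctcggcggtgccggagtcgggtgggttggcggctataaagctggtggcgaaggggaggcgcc
MVD (chr16:88663092-88663341, minus strand): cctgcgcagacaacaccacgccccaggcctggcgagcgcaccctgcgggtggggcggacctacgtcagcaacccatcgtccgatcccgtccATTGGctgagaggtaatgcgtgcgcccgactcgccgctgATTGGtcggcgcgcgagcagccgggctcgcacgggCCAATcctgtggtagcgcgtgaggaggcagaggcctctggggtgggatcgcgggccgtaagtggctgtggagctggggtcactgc
LSS (chr21:46228775-46229024, minus strand): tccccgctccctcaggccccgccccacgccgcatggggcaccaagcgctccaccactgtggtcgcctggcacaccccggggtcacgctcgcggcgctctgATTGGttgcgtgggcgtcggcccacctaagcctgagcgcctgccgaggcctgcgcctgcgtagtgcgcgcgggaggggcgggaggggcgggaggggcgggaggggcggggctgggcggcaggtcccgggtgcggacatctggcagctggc
MSMO1 (chr4:165327419-165327668, plus strand): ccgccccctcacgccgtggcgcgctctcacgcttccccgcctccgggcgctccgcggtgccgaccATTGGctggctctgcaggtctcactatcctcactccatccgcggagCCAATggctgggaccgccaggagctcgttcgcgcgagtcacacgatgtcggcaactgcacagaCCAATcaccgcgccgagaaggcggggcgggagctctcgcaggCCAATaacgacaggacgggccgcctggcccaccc

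RefSeq windows of this kind were matched for 6 of the 7 genes, with 10 windows in all, since some genes have several starts. SQLE had no entry there. CCAAT, searched on both strands, was present in at least 1 window of each of the 6 genes and in 7 of their 10 windows, where 32.0% of all 35116 windows of the same length held it. MSMO1 had 4 boxes, MVD 3, HMGCS1 2 and LSS 1 in the windows shown. HMGCS1 also had a window of another start, not shown, with 0 boxes. GGGCGG, the core of the GC box, was in 9 of the 10 windows and in 42.6% of all windows. TCACNCCAC, a form of the sterol regulatory element, was in 0 of the 10 and in 0.883% of all windows, and the E-box CACGTG in 0 of the 10 and 6.35% of all. Such matches describe letters and do not show binding.

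The deposited signals had trimmed means of 101 to 211 per array, lowest on the arrays at 3 and 6 h after 42 °C and highest at 1, 3 and 6 h after 44 °C, and every array was scaled to 100. Values under a floor of 12.5, the median of all scaled values, were set to it. ACTB probe sets gave a 3′ to 5′ signal ratio, which grows as RNA degrades, of 1.19, 1.32, 1.31 and 1.18 at 0, 1, 3 and 6 h after 44 °C and 1.19, 1.32, 1.36 and 1.22 after 42 °C, against 1.299 in the control. This ratio was thus low at 0 and 6 h, the times at which the enzymes were lowest, and its part in their values was not tested. The same ratio of GAPDH was 1.03, 0.985, 0.939 and 0.979 after 44 °C and 1.006, 1.07, 1.07 and 1.08 after 42 °C, against 1.13 in the control. Of 8 monocytic markers measured, 5 were above the floor on all 9 arrays, among them LYZ and ITGB2, as was PTPRC, while CD14, MPO and FCGR1A were at the floor on every array. Of 4 T cell markers 0 were above the floor on all arrays, and of 3 B cell markers CD79A and PAX5 were, at 21.9 to 65.4. Of 5 epithelial or fibroblast and 2 erythroid markers 0 were, but COL1A1, a collagen chain, was above it on 7 arrays. It was at the floor directly after 44 °C and had 35.2, 85.3 and 200.5 at 1, 3 and 6 h, and had 34.8, 154.7, 125.6 and 268 from 0 to 6 h after 42 °C, against the floor in the control, while COL1A2 and EPCAM were at the floor on every array. With 1 array per condition no test was run and no p-value is given. A level, for which the brightest probe set stands for each gene, is a scaled linear signal, and a difference is in log2 or as a fold. A gene counts as having fallen or risen where the difference was 2-fold or more. Precision is limited by there being 1 array a condition. In RNA from whole cultures, fewer cells that make a transcript and less of it per cell cannot be told apart. All comparisons with the control share 1 array.

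Directly after heat, each of the 7 enzymes lay below the control at both temperatures. Of the 7, 3 fell 2-fold or more at 44 °C (HMGCS1, MVD and MSMO1) and 3 at 42 °C (HMGCS1, MVD and LSS), where 1.03% of all genes had fallen at 44 °C and 2.41% at 42 °C. Among the 9913 genes above the floor on all 9 arrays, as these 7 were, the shares were 1.39% and 3.84%. All 7 enzymes were at least 1.5-fold lower at each temperature, against 6.30% of those genes at 44 °C and 13.0% at 42 °C. The median difference of the 7 was -0.86 at 44 °C and -0.88 at 42 °C, beside 0.022 and -0.020 for genes above the floor on all arrays. Since the enzymes were chosen with earlier results of these data known, the shares of all genes are a background and not a test. HSPA6, a stress-inducible HSP70, had a signal of 131 directly after 44 °C and 4751 directly after 42 °C, against 138 in the control.

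**Figure D1:**
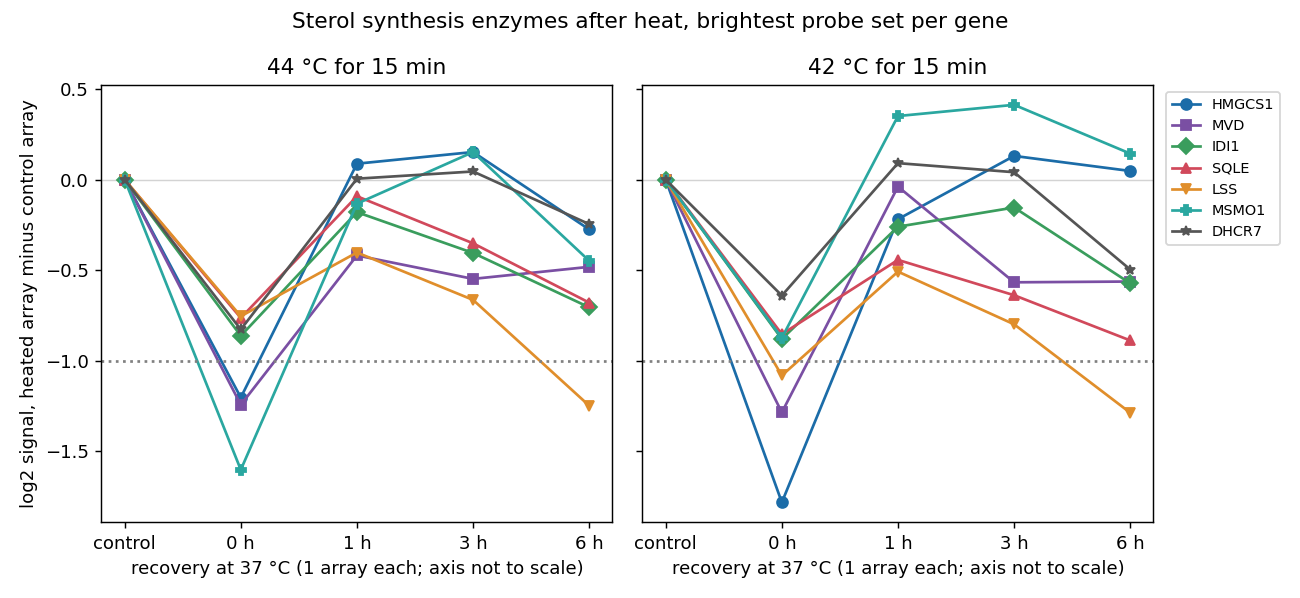
Log2 difference of each heated array from the control array for the 7 enzymes by recovery time, after 44 °C (left) and 42 °C (right); each point is 1 array, the control is set at 0 and the dotted line marks 2-fold. All 7 lie below 0 at 0 h, with HMGCS1 at -1.20 and -1.78 and MSMO1 at -1.60 and -0.87. By the brightest probe sets, which are drawn here, LSS is the one past 2-fold at 6 h (-1.25 and -1.29).

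HMGCS1, which makes HMG-CoA, had signals of 164, 402, 421 and 313 at 0, 1, 3 and 6 h after 44 °C, and 109.9, 325, 414 and 391 after 42 °C, against 378 in the control. Both 0 h arrays stood apart below the other 7 arrays, which lay between 313 and 421. It was 2.30-fold lower at 44 °C and 3.44-fold lower at 42 °C directly after heat. A second probe set of the gene had 132 and 175 on the 0 h arrays at 44 and 42 °C, against 318 in the control, so the log2 difference at 42 °C was -1.78 by the brighter set and -0.86 by the other.

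MVD, the decarboxylase that ends the mevalonate arm, was dim. Its 1 probe set had 25.9, 45.9, 42.0 and 44.0 after 44 °C and 25.2, 59.8, 41.5 and 41.6 after 42 °C, against 61.4 in the control. It was 2.37-fold and 2.44-fold lower directly after heat at 44 and 42 °C. No heated array reached the control, and those at 3 and 6 h lay between 41.5 and 44.0.

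IDI1, the isomerase, had 1099, 1765, 1510.0 and 1226 after 44 °C and 1086, 1669.9, 1797 and 1344 after 42 °C, against 1999.5 in the control. All 8 heated arrays were below the control, lowest at 0 h and next lowest at 6 h. The differences at 0 h were -0.86 and -0.88 at 44 and 42 °C. The name of this probe set ends in _x_at, the maker's mark for probes that may also match other transcripts. A second set of that class, of like signal, gave -0.65 and -0.75, and 2 dim sets with control signals of 35.4 and 60.4 gave 0.14 to -0.63.

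SQLE, squalene epoxidase, had 1353, 2157, 1801 and 1435 after 44 °C and 1272, 1690.2, 1476 and 1241 after 42 °C, against 2298 in the control. The highest heated array, at 1 h after 44 °C, differed from the control by -0.092 in log2. Another of its 4 probe sets moved more, with 329, 838, 574 and 301 after 44 °C and 284, 833, 571 and 415 after 42 °C, against 942 in the control. By that set the log2 difference of SQLE was -1.52 and -1.73 at 0 h at 44 and 42 °C, and -1.65 and -1.18 at 6 h, each past 2-fold. The brightest set did not pass 2-fold on any array.

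LSS, lanosterol synthase, had 728, 929, 775 and 517 after 44 °C and 580.1, 864, 706 and 503 after 42 °C, against 1228 in the control. Every heated array was below the control, and the 6 h arrays were the lowest at both temperatures. The difference was -0.75 and -1.08 at 0 h and -1.25 and -1.29 at 6 h, for 44 and 42 °C in each pair. A second set with a control signal of 147 gave -1.01 and -1.11 at 0 h and -0.996 and -1.09 at 6 h, and the remaining, dim set gave -0.64 and -0.23, then -0.98 and -0.51.

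MSMO1, the sterol methyl oxidase, has 1 probe set here, with 332.5, 921, 1123 and 740.2 after 44 °C and 551, 1289, 1346 and 1116 after 42 °C, against 1010.2 in the control. It was 3.04-fold lower directly after 44 °C and 1.83-fold lower directly after 42 °C. At 42 °C the arrays at 1, 3 and 6 h all stood above the control, by 0.35, 0.41 and 0.14 in log2. At 44 °C the difference was -0.13, 0.15 and -0.45 at those times.

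DHCR7, the last of the enzymes, had 411, 732, 752 and 615 after 44 °C and 468, 777, 750.1 and 517 after 42 °C, against 729 in the control. It was 1.78-fold and 1.56-fold lower directly after heat at 44 and 42 °C, and 2.09-fold and 2.28-fold lower by its second probe set. By the brightest set both arrays at 1 and 3 h lay within 0.091 of the control in log2.

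**Figure D2:**
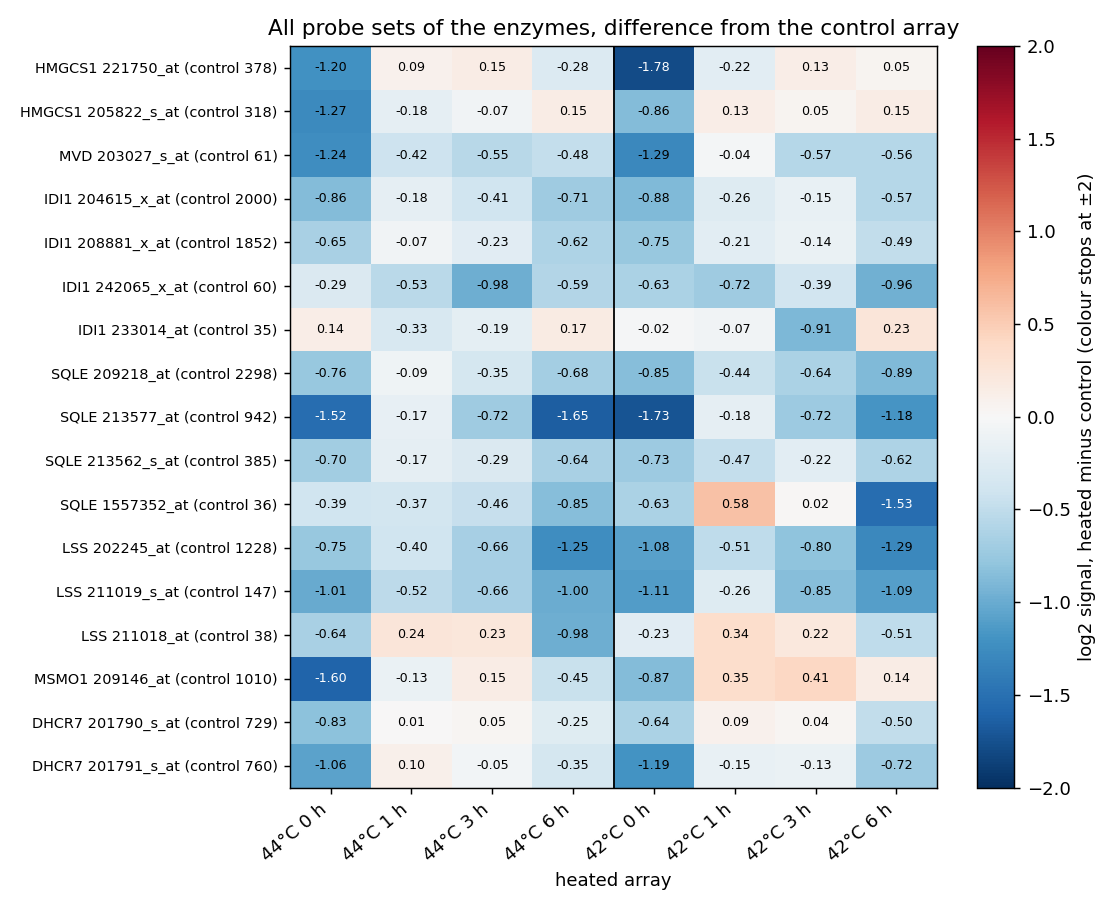
Log2 difference from the control array for each of the 17 probe sets of the 7 enzymes (rows, with the control signal in brackets) on the 8 heated arrays (columns, 44 °C left of 42 °C); blue is lower and red higher than the control. The 0 h columns are blue in nearly every row, with 15 and 16 of the 16 sets above the floor on all arrays below the control at 44 and 42 °C.

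The probe sets counted here include the brightest set of each gene, already read above, with further sets of some of the genes. All read the same RNA, so the counts are not independent of the results by gene. Of the 17 sets, 16 were above the floor on all 9 arrays, the exception being a dim set of SQLE. Of these 16, 15 were below the control directly after 44 °C and 16 directly after 42 °C, with 7 and 6 of them 2-fold or more lower. Of all 21665 probe sets above the floor on all arrays, 2.00% and 4.57% were 2-fold lower there. At 1 h 12 were below the control at each temperature, and 0 were 2-fold lower, against 0.743% and 2.23% of all such sets. At 6 h 14 and 12 were below it, with 2 and 3 past 2-fold, against 4.62% and 3.68%. The share of all such sets below the control by any amount was not counted. For genes above the floor on all arrays, the median difference from the control was 0.0024 and 0.0058 at 1 h. It was -0.056 and -0.041 at 6 h, for 44 and 42 °C in each pair. The set that lay above the control directly after 44 °C was a dim one of IDI1 (38.9 against 35.4).

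Within the first hour of recovery the enzymes moved back towards the control. All 7 were higher at 1 h than at 0 h at both temperatures, in arrays that are not shared between the temperatures and do not include the control. HMGCS1 was 2.45-fold and MSMO1 2.77-fold higher at 1 h than at 0 h after 44 °C. After 42 °C HMGCS1 was 2.96-fold higher, MVD 2.37-fold and MSMO1 2.34-fold. Thus 2 of the 7 rose 2-fold or more after 44 °C and 3 after 42 °C, where 1.47% and 2.09% of all genes did. The median difference was 0.83 after 44 °C and 0.73 after 42 °C, beside -0.015 and 0.014 for genes above the floor on all arrays. The share of all genes higher at 1 h by any amount was not counted.

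The share of the fall regained by 1 h, read here from the brightest sets, differed between enzymes. On the log2 scale DHCR7 regained 101% after 44 °C and 114% after 42 °C, and HMGCS1 107% and 87.8%. LSS regained 46.7% and 53.0%, the lowest share at 44 °C and the second lowest at 42 °C. SQLE regained 88.0% after 44 °C and 48.1% after 42 °C, and MVD 66.4% and 97.0%. MSMO1 regained 91.7% and 140.2%, the widest gap between the temperatures among the 7, and IDI1 79.2% and 70.5%. No replicate shows how far such shares vary, and they depended on the probe set. By the SQLE set that moved more, falls of -1.52 and -1.73 were followed by rises of 1.35 and 1.55, at 44 and 42 °C. By the second HMGCS1 set, falls of -1.27 and -0.865 were followed by rises of 1.09 and 0.99. For DHCR7 the second set gave falls of -1.07 and -1.19 and rises of 1.16 and 1.03.

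**Figure D3:**
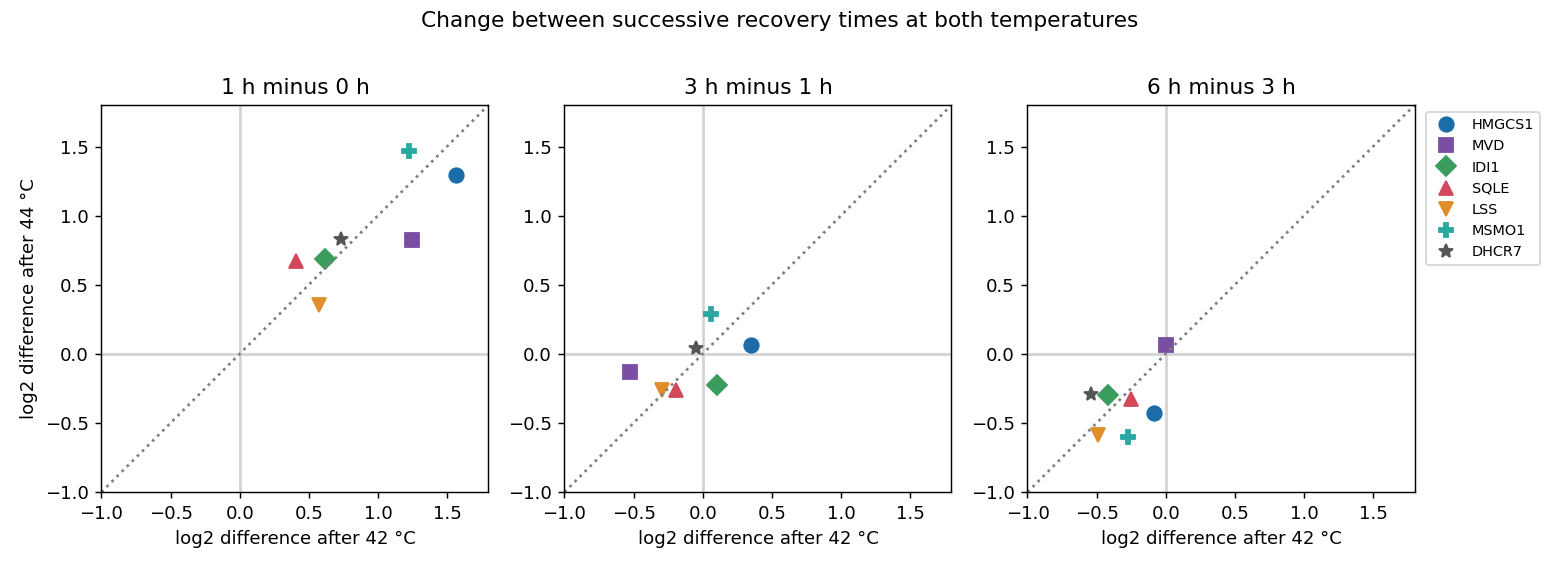
Log2 difference between successive recovery times for the 7 enzymes, after 42 °C (horizontal axis) and 44 °C (vertical axis), with equality dotted. At 1 h minus 0 h all points lie in the upper right part, with HMGCS1 at 1.56 (42 °C) and 1.29 (44 °C), and at 6 h minus 3 h 6 of 7 lie in the lower left part.

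Between 1 and 3 h 0 of the 7 differed by 2-fold, with median differences (3 h minus 1 h) of -0.13 after 44 °C and -0.050 after 42 °C. At 1 h 0 of the 7 were 2-fold lower than the control at either temperature, where 0.455% of all genes were after 44 °C and 1.53% after 42 °C. At 3 h 0 of the 7 were again, where 1.41% and 3.08% of all genes were. By the brightest sets HMGCS1, MSMO1 and DHCR7 were at or slightly above the control at 3 h, by 0.041 to 0.41 in log2. MVD, IDI1, SQLE and LSS were below it by those sets, at -0.15 to -0.80. The second sets gave -0.051 and -0.13 for DHCR7 and -0.075 and 0.049 for HMGCS1, at 44 and 42 °C. A dim set of LSS gave 0.23 and 0.22.

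Between 3 and 6 h 6 of the 7 were, by their brightest sets, lower again at both temperatures, at -0.29 to -0.60 in log2 after 44 °C and -0.083 to -0.54 after 42 °C. MVD was the exception, with 0.067 and 0.0043. For HMGCS1 the direction depended on the probe set, at -0.43 and -0.083 by the brightest and 0.23 and 0.10 by the other, at 44 and 42 °C. Among genes above the floor on all arrays 54.0% were lower at 6 h than at 3 h after 44 °C and 52.1% after 42 °C, by any amount. The median was -0.33 and -0.27. At 6 h LSS was, by the brightest sets, the only one of the 7 that was 2-fold lower than the control. It was lower by 2.38-fold after 44 °C and 2.44-fold after 42 °C, where 2.64% and 2.38% of all genes had fallen. This depended on the probe set. The SQLE set that moved more gave -1.65 and -1.18 at 6 h, and the second LSS set -0.996 and -1.09, at 44 and 42 °C. By the brightest sets all 7 were below the control at 6 h after 44 °C and 5 were after 42 °C, with HMGCS1 and MSMO1 above it by 0.048 and 0.14. The share of all genes below the control at 6 h by any amount was not counted. For genes above the floor on all arrays the median difference there was -0.056 after 44 °C and -0.041 after 42 °C.

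Across the 7 enzymes the steps at 44 °C and 42 °C had a Pearson r of 0.79 for 1 h minus 0 h, 0.48 for 3 h minus 1 h and 0.46 for 6 h minus 3 h. Over the 9913 genes above the floor r was 0.43, 0.34 and 0.38 (across genes, with scaling and time in culture shared). For the last 2 steps the enzymes' r was thus close to that of all such genes. The sign was the same for 7, 5 and 7 of the 7 enzymes, and for 64.1%, 65.6% and 63.0% of those genes.

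Set directly against each other, the 44 and 42 °C arrays differed by under 2-fold for all 7 enzymes at every recovery time. At 0 h 0 of 7 passed 2-fold in either direction and 2.35% of all genes did. At 1, 3 and 6 h it was 0 of 7 each time, against 2.28%, 2.00% and 2.22% of all genes. The median of 44 °C minus 42 °C was 0.042, 0.080, 0.019 and 0.039 at 0, 1, 3 and 6 h. MSMO1 was lower at 44 °C at all 4 times, at -0.73, -0.48, -0.26 and -0.59 in log2, and SQLE was higher at all 4 by its brightest set, by 0.090, 0.35, 0.29 and 0.21. The SQLE set that moved more gave 0.21, 0.0090, 0.0073 and -0.47, and the other set above the floor on all arrays gave 0.032, 0.30, -0.070 and -0.021, so the order at 6 h depended on the probe set. HMGCS1 was higher at 44 °C at 0 h (0.58) and lower at 6 h (-0.32), and by its second probe set the 0 h signals were 132 at 44 °C and 175 at 42 °C, the opposite order. The later arrays differed in deposited trimmed mean (191 to 211 at 44 °C, 101 to 139.6 at 42 °C from 1 h on), and its part in these differences was not tested.

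Other genes of the pathway and its surroundings were read from lists chosen with the data known. Beside the counts of these lists, 1.03% of all genes fell and 0.855% rose directly after 44 °C, and 2.41% fell and 0.930% rose directly after 42 °C. Among 13 other enzymes of cholesterol synthesis measured, by their brightest sets 0 fell and 1 rose directly after 44 °C. Directly after 42 °C 1 fell and 0 rose, and the medians were 0.0033 and -0.30 at 44 and 42 °C. For MVK the reading depended on the probe set, at -0.18 and -0.32 by the brightest. Another set above the floor on all arrays gave -1.28 at 44 °C and -0.96 at 42 °C. A further such set gave -0.495 at 44 °C and -2.004 at 42 °C. FDPS, which makes farnesyl diphosphate, had 1610.0 and 1532 on the 0 h arrays at 44 and 42 °C, against 2444 in the control, a difference of -0.60 and -0.67. SC5D, a desaturase late in the pathway, had 299.8 and 267, against 470.3 (differences of -0.65 and -0.82). PMVK, the phosphomevalonate kinase, was not lower, with 552 and 642 against 442, nor was LBR, a sterol reductase of the nuclear membrane, with 2931 and 3143 against 2924. EBP, a sterol isomerase, had 1742 and 1626, against 1617, by its brightest set, while 2 other sets above the floor on all arrays gave differences of -0.33 and -0.29 at 44 °C and -0.24 and -0.31 at 42 °C. By the brightest sets the gene that rose was FAXDC2 (80.6 directly after 44 °C, against 32.2). The one that fell by its brightest set was HSD17B7, a sterol ketoreductase. It was at the floor directly after 42 °C, against a control signal of 28.1. FAXDC2 had 2 other probe sets, both at the floor on every array.

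**Figure D4:**
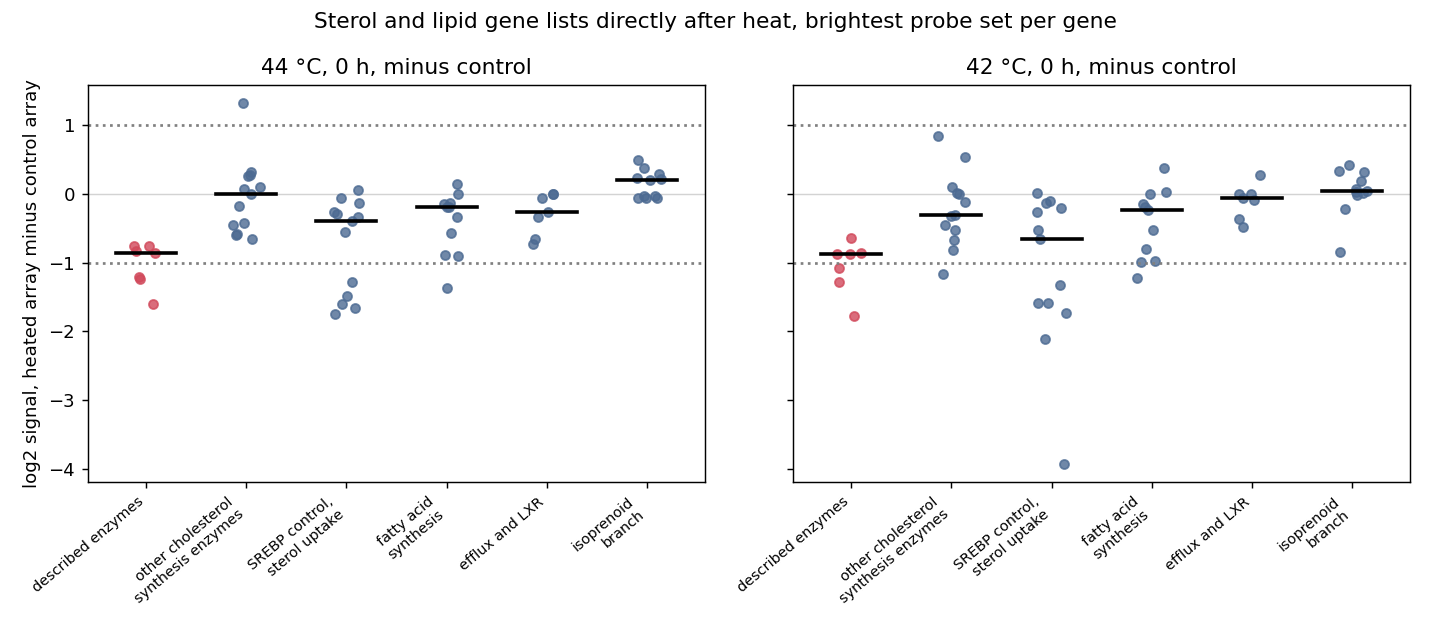
Log2 difference of the 0 h array from the control array for each measured gene of 6 lists, at 44 °C (left) and 42 °C (right); bars are list medians and dotted lines mark 2-fold. The 7 described enzymes have medians of -0.86 and -0.88 and the isoprenoid branch list 0.20 and 0.040, and the lowest point at 42 °C is SREBF1, which was at the floor there.

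In the list of SREBP control and sterol uptake genes 5 of 13 fell and 0 rose directly after 44 °C, and 6 fell and 0 rose after 42 °C (medians -0.40 and -0.66). INSIG1, which holds SREBP in the endoplasmic reticulum, had 1228 and 895 on the 0 h arrays at 44 and 42 °C, against 3868 in the control. SREBF2, the SREBP gene most tied to sterol synthesis, had 77.0 and 85.6, against 215, though its other probe sets gave smaller differences of -0.60 and -0.83 at 44 °C and -0.27 and -0.39 at 42 °C. NPC1, which exports cholesterol from lysosomes, had 456 and 463.5, against 1532, and STARD4, a carrier of sterol, had 132 and 107, against 322. SREBF1 had 63.2 directly after 44 °C and was at the floor after 42 °C, against 190.7 in the control. RNF139, a ubiquitin ligase of the endoplasmic reticulum, had 453 and 199, against 596.

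Of 11 fatty acid genes measured, 1 fell and 0 rose directly after heat at each temperature, with medians of -0.19 and -0.23 at 44 and 42 °C. SCD, a desaturase of fatty acids, fell at 44 °C, with 1507 and 1957, against 3884. Its 3 other probe sets were past 2-fold at both temperatures, at -1.69 to -1.85 at 44 °C and -1.01 to -1.51 at 42 °C. ACSS2, which makes acetyl-CoA from acetate, had 109 and 103.9, against 204. FASN, the fatty acid synthase, fell at 42 °C, with 375 and 178, against 417. Of 11 genes of isoprenoid branches, which lead to dolichol, ubiquinone and protein prenylation, 0 fell and 0 rose at either temperature, with medians of 0.20 and 0.040. Of 7 efflux and LXR genes 0 fell and 0 rose by their brightest sets. Only 3 of them were above the floor on all arrays, and ABCA1 and CH25H were at the floor on every array. LPCAT3, 1 of the 3, gave -0.66 and -0.37 at 44 and 42 °C, but -0.50 and -1.13 by its other set.

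Each enzyme's pattern over the 9 arrays was set against the mean of the other 6, each centred. Pearson's r was 0.94 for IDI1, 0.92 for DHCR7, 0.89 for MVD, 0.80 for HMGCS1, 0.76 for MSMO1, 0.73 for SQLE and 0.53 for LSS, over arrays that share 1 scaling. Among 3490 other genes above the floor on all arrays that varied by 2-fold or more, those most like the mean of the 7 were INSIG1 (r of 0.96), SREBF2 (0.95), ACSS2 (0.95), SLC6A6 (0.95), WIPI1 (0.95), ZNF124 (0.94), P2RX7 (0.93), ART3 (0.92), MYRF (0.92) and BHLHE40 (0.92). SLC6A6, a taurine transporter, had 451 and 361 on the 0 h arrays at 44 and 42 °C, against 747 in the control, and WIPI1, an autophagy protein, had 46.9 and 38.1, against 108.8.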

How the data were processed

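The values the authors deposited are linear intensity, 1 for each of 54675 probe sets on every array, and are MAS5 signals per the submitters' processing notes. The scaling target is not given in the sources used here. Each array was multiplied by 1 factor so that its mean, with 2% of probe sets trimmed at each end and 62 controls left out, was 100. Anything below the floor of 12.5 was set there before conversion to log2. The platform annotation gave 1 symbol to 41091 probe sets that are not controls and several to 1801, and 11777 were not listed. A gene was read from its brightest probe set (mean log2 over the 9 arrays). The 18 comparisons were heated against control (8), 44 °C against 42 °C (4) and successive recovery times (6), without a test, since each condition had 1 array. Python 3.11.15, numpy 2.4.6 and pandas 2.3.3 were used, and the calculation was tested on simulated data. Alternatives used other scalings, floors, ways to join probe sets, fold thresholds and the 0 h arrays as baseline. Named genes were the 7 enzymes, members of the lists past 2-fold, a few control genes of the pathway (further list members were named after their values were seen), and the 10 genes most like the enzymes. Members, lists and settings were chosen with earlier results of these data known.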

Additional observations from a re-analysis of the deposited data

How the results depend on the processing

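No paired analysis was possible because the labels give no replicate numbers and each condition had 1 array. The arrays of the same recovery time were set against each other directly, and a model of temperature with time as a block over the 8 heated arrays was not run. The median of the 7 enzymes directly after heat ran from -1.11 to -0.83 at 44 °C and from -1.11 to -0.77 at 42 °C over 5 settings (quantile normalisation, median scaling, floors at the 25th and 75th percentiles, and the median over probe sets). Over those settings 13 single-enzyme differences past 2-fold gave 65 values, of which 60 stayed past 2-fold and 0 changed sign. Those lost were MVD at 0 h under the higher floor, which lay above its signals (0 at both temperatures, and for its rise after 42 °C), LSS directly after 42 °C with median scaling (-0.97) and at 6 h after 44 °C with the median over probe sets (-0.996). Directly after 42 °C 5 enzymes passed 2-fold with quantile normalisation, and directly after 44 °C 5 did with the median over probe sets, in place of 3. The median at 3 h after 44 °C was 0 with the higher floor. With a rule of 1.5-fold 7 were lower at 0 h at both temperatures, then 1 and 2 at 3 h (6.06% and 9.07% of all genes) and 3 and 2 at 6 h (8.94% and 8.56%) after 44 and 42 °C. By that rule 1 was lower at 44 than at 42 °C at 0 h (2.84% of all genes) and 1 at 6 h (6.06%), 6 and 5 were higher at 1 h than at 0 h (5.81% and 7.28%), and 2 were lower at 6 h than at 3 h after 44 °C (4.84%). Set against the 0 h array, the medians at 1, 3 and 6 h were 0.83, 0.70 and 0.58 after 44 °C and 0.73, 0.72 and 0.31 after 42 °C, with 2, 2 and 1 and with 3, 2 and 2 enzymes higher by 2-fold and 0 lower at 6 h. At 1 h 1.47% and 2.09% of all genes were higher by 2-fold after 44 and 42 °C. The shares at 3 and 6 h were not counted, so those counts of enzymes have no background. Counts over all genes, 84 to 610 per direction, were 964 to 2337 with the lower floor and 6 to 225 with the higher. Beside this, dim probe sets near the floor limit what can be read for MVD.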
